A study of Mus musculus with 12 samples.

Results

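The DNA replication genes described here are 44 genes for origin licensing, the replicative helicase, the DNA polymerases and their sliding clamp, single-strand binding, Okazaki fragment joining, deoxynucleotide synthesis and chromatin assembly behind the fork. They were taken from a list of gene names, and all 44 names were found among the 22549 gene symbols of each library. They were followed through 12 RNA-seq libraries in 6 groups of 2, described by the submitters as biological replicates. The testes came from male DBA/C57 F1 pups, wild type and 5 to 7 days of age. For the treatment experiment, mouse spermatogonial stem cells (mSSC), the self-renewing cells at the base of spermatogenesis, were plated on laminin and kept for 24 h with vehicle, with retinoic acid (RA) at 100 nM, or with that RA dose together with cycloheximide (CHX), which blocks protein synthesis, at 0.25 mg/ml. No group given CHX without RA was analysed here, so an action of CHX of its own and an action of CHX on the RA response cannot be told apart. In the induction experiment, mSSC carrying GFP were placed on pup Sertoli cells whose division had been stopped with mitomycin. Induced differentiating spermatogonia (idSG) were sorted on day 3 as cells positive for GFP and c-KIT, and induced spermatocytes (iSC) on day 6 as cells positive for GFP and negative for c-KIT. Untreated mSSC were the reference of that experiment. The iSC gate thus used GFP and the lack of c-KIT, and no meiotic protein.

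Replication origins are licensed in G1, when the origin recognition complex (ORC), CDC6 and CDT1 load the MCM2 to MCM7 helicase onto DNA, and they fire in S phase, when further factors switch the helicase on. Polymerase alpha with primase then lays down primers, polymerases delta and epsilon extend them on the PCNA clamp, and RPA covers the exposed single strands. Many of these genes are transcribed under E2F factors as cells enter S phase. In the testis, spermatogonia replicate before each mitosis, and preleptotene spermatocytes carry out a last round of replication before meiotic prophase.

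The deposited values are FPKM, fragment numbers scaled to transcript length and library size, so levels can be set beside each other per length, and the absolute read depth is unknown. Relative depths, read from the most common ratio between low values of 2 libraries, were 84.2% to 99.6% of the first library in the induction experiment. In the treatment experiment they were 84.2% to 98.8%. That ratio took in 8.30% to 12.4% of the values compared in the induction experiment. In the treatment experiment it took in only 1.35% to 4.05%, so the depths there are poorly fixed. The labels were checked on marker genes before the results. Kit, which encodes c-KIT, was at 1.88 and 2.42 FPKM in mSSC, 105 and 65.9 in idSG and 9.75 and 4.04 in iSC, high in the c-KIT sort alone among these groups. Summed over 9 meiotic genes such as Sycp3 and Hormad1, the level was 246 to 249 FPKM in mSSC, 399.8 to 519 in idSG and 709 to 1176 in iSC. These genes did not all move alike. Rec8 was at 8.1 and 7.46 FPKM in mSSC, 96 and 74.5 in idSG and 21 and 8.33 in iSC. Between idSG and iSC, 6 of the 9 were called higher and 1 (Rec8) lower, beside 4.46% and 6.75% of all genes. In idSG against mSSC 4 were higher and 0 lower, with negative changes for Spo11 and Msh5. The 7 stem cell markers summed to 504 and 598.5 FPKM in mSSC, 65.6 and 73.7 in idSG, 22.6 FPKM in iSC replicate 1 and 135 in iSC replicate 2, so the iSC libraries stood apart from each other in this respect. The same list summed to 647 to 648 FPKM with vehicle, 420.3 to 431 with RA and 81.0 to 81.9 with RA and CHX. Stra8, a gene that RA induces in germ cells, was at 22.9 and 24.4 FPKM with vehicle, 537 and 584 with RA and 928 and 904 with RA and CHX. Kit and Stra8 are from a list of 5 genes of differentiating spermatogonia that did not all move alike. Dmrtb1 was at 16.4 and 17 FPKM with vehicle, 9.81 and 9.01 with RA and 2.59 and 3.04 with RA and CHX. Against vehicle, RA with CHX gave 3 of the 5 higher and 2 lower (Dmrtb1 and Sohlh2). In idSG against mSSC 2 were higher and 0 lower, and Sohlh1 was lower in iSC than in mSSC. Sertoli cell genes were also present after induction: a list of 10 summed to 5.34 to 5.43 FPKM in mSSC, 581 and 1461 in the idSG replicates and 2152 and 2942 in the iSC replicates, although the sort was for GFP. Fshr, which encodes the Sertoli cell FSH receptor, stayed at or under 0.185 FPKM in all 12 libraries. Vehicle, RA and RA with CHX libraries had 5.36 to 10.5 FPKM over the same list.

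The 44 genes were abundant in the stem cells. Their median level was 55.2 FPKM in mSSC, which put the median member above 84.8% of the genes with at least 1 FPKM, and 51.3 FPKM with vehicle. RA (51.2 FPKM) and RA with CHX (50.5 FPKM) left that median almost where it was. In idSG it was 46.6 FPKM and in iSC 29.8 FPKM, above 72.4% of genes. Pcna, the sliding clamp, was the highest member in each group except RA with CHX, where Mcm2 was. The lowest member was Pola1 with vehicle (5.86 FPKM) and in mSSC, Gins3 with RA and in idSG (6.13 FPKM), Gins2 with RA and CHX (4.48 FPKM) and Tyms in iSC (5.75 FPKM). Summed over the 44 genes, the level was 3033 and 2842 FPKM in mSSC, 2898 and 2345 in idSG and 1757 and 1830 in iSC. Both iSC libraries were below all other libraries of the study in this sum. In bulk libraries, fewer cells that replicate and less RNA of a gene per cell cannot be told apart.

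**Figure D1:**
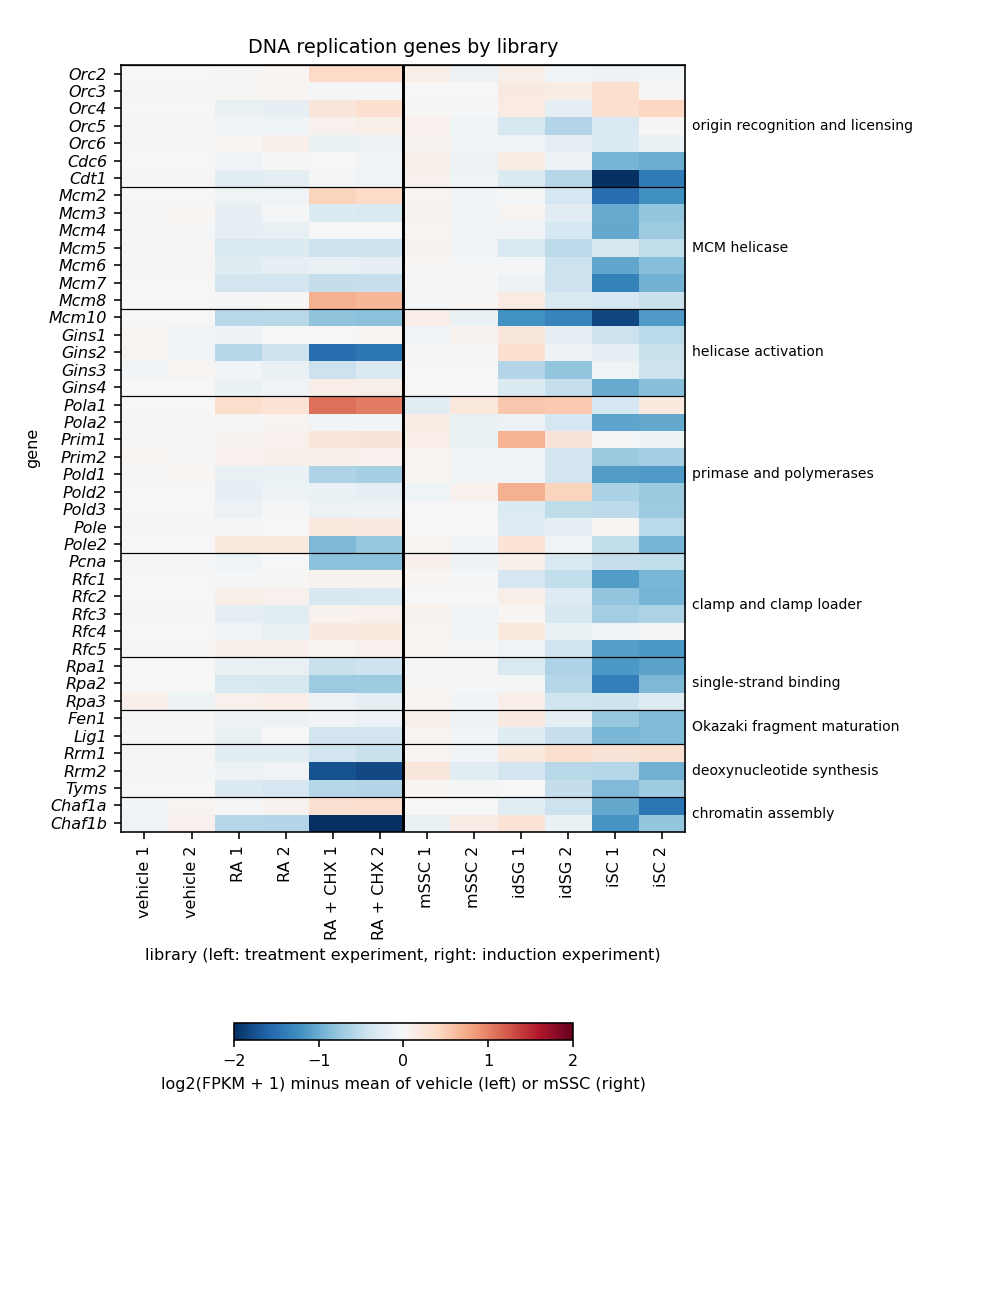
Each row is a replication gene and each column a library, coloured by log2(FPKM + 1) minus the mean of the vehicle libraries (left) or of the mSSC libraries (right), with the colour scale ending at -2 and 2, so that lower values share the darkest blue. The iSC columns are blue for most rows, while the RA with CHX columns hold red and blue rows side by side. Rows such as Orc2, Orc3, Orc4, Orc5, Gins3, Pola1, Prim1, Pole, Rfc4 and Rrm1 are pale or red in at least 1 iSC library.

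Whether RA by itself moves these genes was asked by comparing RA with vehicle. Only small changes were measured: 4 of 44 rose and 19 fell in limma at an adjusted p under 0.05, and Chaf1b moved furthest, by -0.58 on the log2(FPKM + 1) scale, on which all fold changes here are given. Over all 12339 genes tested, 22.8% were called higher and 29.9% lower, so 52.7% were called at all. The members' 19 of 44 thus stand above that background share and their 4 of 44 below it, and neither difference was tested. With an added limit of a 2-fold change, 0 members were called, beside 0.34% of all genes higher and 1.05% lower. The members' median log2 change was -0.08, against -0.02 for all genes. The direction depended on scaling: after quantile normalization 11 rose and 9 fell and the median was 0.01, while the share of all calls that were higher went from 43.3% to 55.2%. With all 12 libraries in 1 fit, which shares the spread of the induction libraries, all 23 calls were lost and the genes called in all went from 6503 to 510. Without RA replicate 1 the count called higher was 1 and without RA replicate 2 it was 2.

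Adding CHX to RA split the genes. Against vehicle, 13 of 44 rose, 21 fell and 10 were not called, where 36.1% of all genes were called higher and 43.2% lower (79.3% in all). Against RA alone, 14 rose, 19 fell and 11 were not called, beside 35.1% and 42.5% of all genes (77.6% in all). Most genes tested were thus called in both comparisons, and the members' counts lie near that background. The members' median log2 changes were -0.10 against vehicle and -0.04 against RA, with -0.05 and -0.05 for all genes, and the median against RA was 0.03 under median-ratio scaling. The lowest log2 changes against vehicle were those of Chaf1b (-2.54), Rrm2 (-1.77) and Gins2 (-1.48), and the highest those of Pola1 (1.07), Mcm8 (0.68) and Mcm2 (0.43). At the 2-fold limit, 1 member was higher (Pola1) and 3 lower against vehicle, beside 3.36% and 9.26% of all genes. Against RA, 0 were higher and 3 lower (Pole2, Rrm2 and Chaf1b), beside 2.7% and 7.04%. The 3 treatment comparisons share libraries with each other and are not independent.

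In the induction experiment few of the genes were called in idSG and most were lower in iSC. Against mSSC, 1 of 44 was called higher in idSG and 3 lower, with 40 not called, where 17.9% of 12626 genes were called higher and 10.7% lower (28.6% in all). Between iSC and idSG, 0 rose and 19 fell, beside 4.46% and 6.75% of all genes (11.2% in all). Between iSC and mSSC, 0 rose and 29 fell, beside 26.2% and 25% of all genes (51.2% in all). At the 2-fold limit, 11 members were lower in iSC than in mSSC, beside 9.12% of all genes. Between iSC and idSG that limit left 0 higher and 4 lower (Cdt1, Mcm2, Pold2 and Chaf1b), beside 2.49% and 1.93%. Between idSG and mSSC it left 0 higher and 1 lower (Mcm10), beside 10.9% and 4.32%. The members' median log2 changes in these comparisons were -0.19, -0.55 and -0.74, against 0.05, -0.04 and -0.03 for all genes tested. Of the 44, 41 had a negative log2 change between mSSC and iSC. All 19 members that fell from idSG to iSC were also among the 29 that were lower in iSC than in mSSC. Of the 29, 26 were not called between mSSC and idSG, which does not show that they were unchanged there.

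Set against the 29 members called, leaving out 1 library changed the count between iSC and mSSC by at most 10. It was 19 without mSSC replicate 1 and between 21 and 30 without any other library of the experiment, and 11 genes (Cdt1, Mcm2, Mcm7, Mcm10, Pola2, Pold1, Rfc1, Rfc5, Rpa1, Rpa2 and Chaf1a) kept their call under every alternative run except a Sertoli marker covariate, under which all 29 calls were lost and 21 of the 29 changed sign. Calls between iSC and idSG were far less firm, with 0 members called without idSG replicate 1, 2 without mSSC replicate 1, 1 without mSSC replicate 2, 2 without iSC replicate 1 and 14 or 15 without either of the other libraries. In the comparison of idSG with mSSC, 0 members were called without mSSC replicate 1 or idSG replicate 2, 1 without mSSC replicate 2 and 2 without idSG replicate 1. The members' median log2 change there was -0.34 without idSG replicate 1 and -0.02 without idSG replicate 2, so it rests on those libraries. Quantile normalization moved the median of all genes in that comparison from 0.05 to -0.06 and the share of calls that were higher from 62.7% to 47.8%, and gave 1 member higher and 5 lower.

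**Figure D2:**
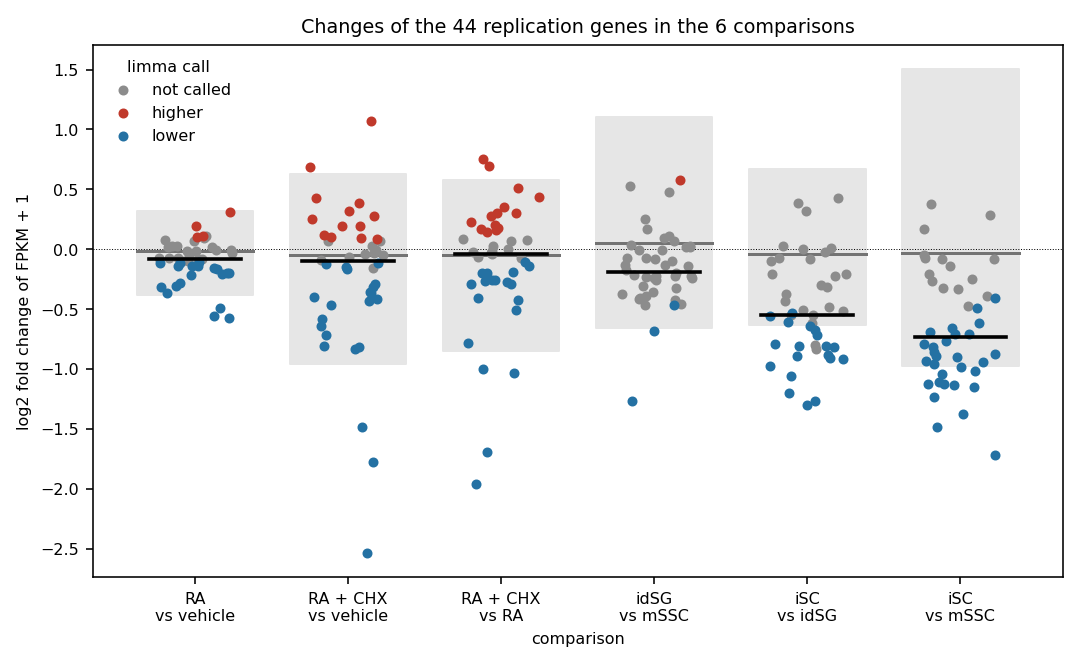
Each point is a replication gene and the y axis its log2 fold change of FPKM + 1 in the 6 comparisons, red where called higher, blue where called lower and grey where not called. Black lines are the members' medians, and grey boxes and lines the 10th to 90th percentile and the median of all tested genes. The members' median is furthest from that of all genes between iSC and mSSC, at -0.74.

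Among 7 origin recognition and licensing genes, the loaders Cdc6 and Cdt1 were lower in iSC, and 0 of the 5 ORC members (Orc2 to Orc6) were called in any induction comparison. Between mSSC and iSC 28.6% of the 7 were thus lower, near the 25% of all genes. Orc6, the smallest subunit of the complex, was at 51.1 and 46.5 FPKM in mSSC, 46.3 and 42.6 in idSG and 40.3 and 44.1 in iSC. Its iSC and idSG values overlapped, and its log2 change from mSSC to iSC was -0.20 ± 0.13 (SE, n = 2 per group, limma adjusted p = 0.213). Orc4 had the highest log2 change of the 44 between mSSC and iSC, and was still not called. Its values were 17.3 and 16.5 FPKM in mSSC, 19.1 and 14.8 in idSG and 21.7 and 22.9 in iSC, with both iSC libraries above the rest, and the change was 0.38 ± 0.16 (adjusted p = 0.0875). Orc3 was at 14 and 14 FPKM in mSSC, 16 and 15.7 in idSG and 17.7 and 14.2 in iSC with a change of 0.17 ± 0.16 (adjusted p = 0.396) from mSSC to iSC, its iSC libraries straddling those of idSG. Orc5 was at 23.6 and 20.8 FPKM in mSSC, 17.4 and 14.4 in idSG and 17.8 and 22.4 in iSC, lower in both idSG libraries than in either mSSC library, without a call (-0.46 ± 0.17, adjusted p = 0.0926).

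Cdc6, the ATPase that joins ORC to bring in the helicase, was at 14.7 and 12.3 FPKM in mSSC, 15 and 12.4 in idSG and 6.61 and 6.26 in iSC. Both iSC libraries lay at about the same low level, well under every mSSC and idSG library, and the log2 change from mSSC was -0.96 ± 0.18 (adjusted p = 0.00495). That call was lost without mSSC replicate 1 (adjusted p = 0.0504). Cdt1, the loading factor that geminin holds back, was the member with the lowest log2 change in both iSC comparisons. It was at 66.3 and 59.3 FPKM in mSSC, 51.7 and 41.9 in idSG and 14.6 and 22.9 in iSC. Every iSC value was under every idSG value, and every idSG value under every mSSC value. The log2 change was -1.72 ± 0.22 (adjusted p = 0.00162) from mSSC to iSC and -0.42 ± 0.22 (adjusted p = 0.193) from mSSC to idSG, the latter not called.

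Under RA these genes moved little. Cdt1 was at 76.6 and 78.9 FPKM with vehicle, 67.1 and 67.9 with RA and 75.3 and 73.7 with RA and CHX, lower in both RA libraries than in any other library of the experiment, with a log2 change of -0.20 ± 0.03 (adjusted p = 0.00164). Cdc6 was at 14.8 and 15 FPKM with vehicle, 14.2 and 15.2 with RA and 15 and 14.2 with RA and CHX, and all its groups overlapped. Orc6 was at 48.2 and 47.1 FPKM with vehicle, 48.8 and 51.4 with RA and 43.3 and 43.8 with RA and CHX, lowest with CHX (-0.13 ± 0.04, adjusted p = 0.0135 against vehicle, a call lost without vehicle replicate 1 or RA_CHX replicate 1). Orc2, another core subunit, went the other way with CHX, from 37.3 and 37.3 FPKM with vehicle to 49.4 and 48.7 FPKM (0.39 ± 0.03, adjusted p = 1.36e-05). Orc4 was at 18 and 18 FPKM with vehicle, 16.1 and 16 with RA and 21.6 and 22.6 with RA and CHX. It was lower with RA (-0.16 ± 0.04, adjusted p = 0.013, lost without RA replicate 2) and higher with RA and CHX (0.28 ± 0.04, adjusted p = 0.000348), with no overlap between the groups.

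MCM genes encode the ring-shaped helicase, MCM2 to MCM7, and MCM8, a relative that acts in recombination repair and meiosis. All 6 genes of the ring were lower in iSC than in mSSC, Mcm8 was not called, and 5 of the 6 were also lower in iSC than in idSG. Of the 7 MCM genes, 85.7% were thus lower against mSSC, beside 25% of all genes, and 71.4% against idSG, beside 6.75%. Mcm2 was at 155 and 143 FPKM in mSSC, 147 and 118 in idSG and 51 and 63.1 in iSC. Both iSC values were far below all others, and the mSSC and idSG ranges overlapped. Its log2 change was -1.38 ± 0.16 (adjusted p = 0.00133) from mSSC to iSC and -1.20 ± 0.16 (adjusted p = 0.0177) from idSG to iSC. The ring's calls between idSG and iSC were all lost without idSG replicate 1. Mcm7, the subunit next to MCM4 in the ring, went from 209 and 203 FPKM in mSSC to 79.9 and 106 FPKM in iSC (-1.15 ± 0.18, adjusted p = 0.00299), although exons of its gene overlap those of 2 neighbours. The remaining ring genes Mcm3, Mcm4 and Mcm6 had log2 changes of -0.90, -0.87 and -0.94 from mSSC to iSC.

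Mcm5 was the exception in time. It was at 117 and 107 FPKM in mSSC, 90.1 and 77.9 in idSG and 89.9 and 79 in iSC. Its idSG and iSC ranges overlapped, and both lay under mSSC. Most of its difference was thus already present in idSG, where it was not called (-0.42 ± 0.14, adjusted p = 0.0622), and the change between idSG and iSC was 0.01 ± 0.14 (95% interval -0.32 to 0.34). The call between mSSC and iSC (-0.41 ± 0.14, adjusted p = 0.0437) was lost without mSSC replicate 1, mSSC replicate 2 or iSC replicate 2, up to an adjusted p of 0.252. Mcm8 was at 20 and 20.7 FPKM in mSSC, 22.8 and 16.2 in idSG and 15.9 and 14.7 in iSC. Both iSC libraries were lowest, the idSG libraries spread across the mSSC range, and the log2 change from mSSC to iSC was -0.39 ± 0.18 (adjusted p = 0.114).

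With RA alone, 4 genes of the ring (Mcm4, Mcm5, Mcm6 and Mcm7) were lower, Mcm7 furthest (-0.36 ± 0.03, adjusted p = 9.28e-05). They were 57.1% of the 7 MCM genes, beside 29.9% of all genes called lower. Mcm2 and Mcm3 were not called, and Mcm2 went from -0.08 to 0.12 after quantile normalization. With CHX added, the subunits differed in direction. Mcm2 was at 189.9 and 193 FPKM with vehicle, 180.4 and 181 with RA and 261 and 254 with RA and CHX, and both libraries with CHX were above all others of the experiment (0.43 ± 0.03, adjusted p = 1.05e-05 against vehicle). Mcm5 was at 105 and 109 FPKM with vehicle, 87 and 88.8 with RA and 79.7 and 80 with RA and CHX. It fell in 2 steps without overlap. Against vehicle the log2 change was -0.28 ± 0.03 (adjusted p = 0.0004) with RA and -0.42 ± 0.03 (adjusted p = 1.15e-05) with RA and CHX. Mcm3, Mcm6 and Mcm7 also fell against vehicle with RA and CHX, while Mcm4 was not called (adjusted p = 0.936). Mcm8 was at 21.8 and 22.2 FPKM with vehicle, 21.3 and 22.3 with RA and 36.5 and 35.4 with RA and CHX, overlapping between vehicle and RA, and higher in both libraries with CHX (0.68 ± 0.04, adjusted p = 2.86e-06).

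The promoters of these genes were read for the E2F-type letters TTTCGCGC, TTTGGCGC, TTTCCCGC and TTTGCCGC on both strands, where matches may overlap each other. RefSeq promoters (GRCm38.p6, 250 bases before the annotated start site and 50 from it on) were at hand for 37 of the 44 members. A match was found in 15 of the 37 (40.5%), beside 2.6% of 27025 genes in the same table. The letters CCAAT were in 62.2% of the members and 41.1% of the genes, and TTTGAA, the core of the cell cycle homology region, in 10.8% and 20.2%. The promoter of Mcm6 (chr1:128359706-128359955, minus strand) and that of Mcm5 (chr8:75109259-75109508, plus strand), the 250 bases before the start site, are shown because each holds a pair of overlapping matches on opposite strands. Capitals mark the matches.
Mcm6: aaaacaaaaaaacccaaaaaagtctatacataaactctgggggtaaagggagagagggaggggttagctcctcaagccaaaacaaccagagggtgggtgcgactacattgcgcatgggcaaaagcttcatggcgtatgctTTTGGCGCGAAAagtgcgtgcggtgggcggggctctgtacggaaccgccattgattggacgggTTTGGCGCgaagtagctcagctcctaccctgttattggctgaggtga
Mcm5: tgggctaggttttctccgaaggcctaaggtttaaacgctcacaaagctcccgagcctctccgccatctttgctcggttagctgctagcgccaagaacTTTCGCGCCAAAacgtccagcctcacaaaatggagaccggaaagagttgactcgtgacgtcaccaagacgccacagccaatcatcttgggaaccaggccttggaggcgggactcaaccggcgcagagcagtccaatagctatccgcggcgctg
Stretches of 60 bases are shown for the licensing gene Cdc6 (chr11:98907987-98908046, plus strand) and the helicase gene Mcm7 (chr5:138172015-138172074, minus strand), which were lower in iSC. The third is from Pola1 (chrX:93632260-93632319, minus strand), which was not and which rose with RA. Capitals again mark the match, read here on the opposite strand.
Cdc6: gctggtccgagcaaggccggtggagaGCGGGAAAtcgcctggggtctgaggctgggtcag
Mcm7: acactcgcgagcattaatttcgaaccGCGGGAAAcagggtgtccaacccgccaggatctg
Pola1: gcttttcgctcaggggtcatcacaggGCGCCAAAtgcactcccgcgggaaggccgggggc
All sequences run 5′ to 3′ on the strand of the gene. A match in these windows is a description of the letters and not a shown binding site.

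**Figure D3:**
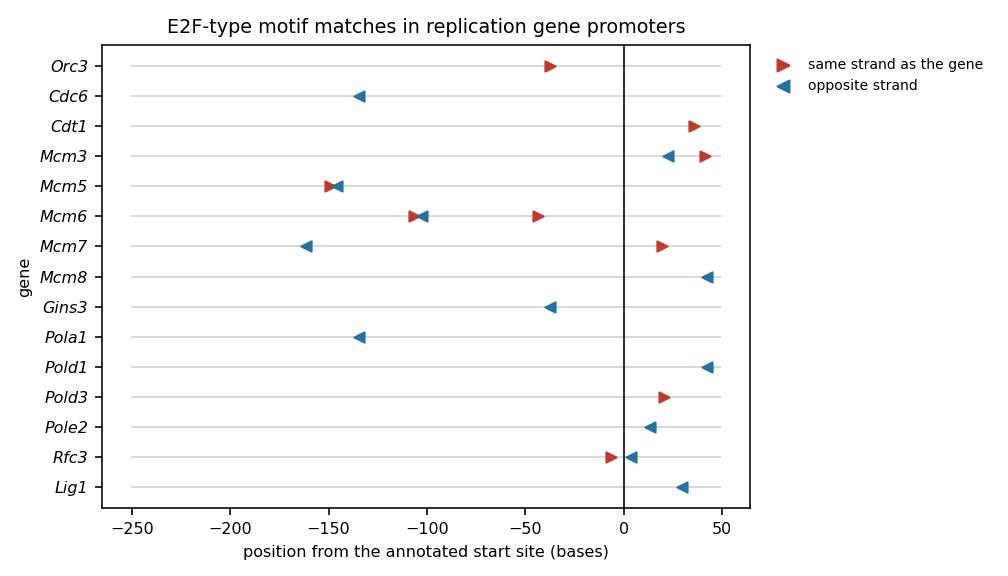
Triangles give the position of each of the 21 E2F-type matches along the promoters of the 15 members that hold one, in bases from the annotated start site (vertical line), red for the strand of the gene and blue for the opposite strand. In 8 genes a match lies wholly before the start site, and in 7 the matches lie only at or after it.

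The changes of members with and without a match are set side by side here. Between mSSC and iSC, the 15 with a match had a median log2 change of -0.71 and 11 were called lower, and the 22 without one had -0.78 with 13 called lower. With RA and CHX against vehicle the medians were -0.15 and -0.11. These are descriptions, and no difference between the sets was tested.

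Of 5 helicase activation genes, Mcm10 and Gins3 were lower in idSG than in mSSC, and Mcm10, Gins1 and Gins4 in iSC. These were 40% of the 5 in idSG, beside 10.7% of all genes, and 60% in iSC, beside 25%. Mcm10, which helps turn the loaded helicase on, was at 39.3 and 32.4 FPKM in mSSC, 14.9 and 13.5 in idSG and 9.35 and 15.7 in iSC. All idSG and iSC values were well under the lower mSSC value, and the idSG and iSC ranges overlapped. The log2 change was -1.27 ± 0.24 (adjusted p = 0.0118) from mSSC to idSG and -1.48 ± 0.24 (adjusted p = 0.00331) from mSSC to iSC, and only the former was lost without mSSC replicate 1 (adjusted p = 0.0823) or idSG replicate 2 (adjusted p = 0.075). Gins3, a subunit of the GINS complex that rides with the helicase, was at 10.4 and 10.5 FPKM in mSSC, 6.64 and 5.63 in idSG and 9.76 and 7.46 in iSC. It was lower in idSG than in mSSC in every library (-0.69 ± 0.19, adjusted p = 0.037), a call lost without either mSSC library or either idSG library, and in iSC it was in between. Gins2 was at 19.9 and 19.1 FPKM in mSSC, 24.6 and 18.2 in idSG and 16.9 and 14 in iSC. The idSG range reached from below to above that of mSSC, and no induction comparison called it. Gins4 went from 68.8 and 70.1 FPKM in mSSC to 34 and 37.9 FPKM in iSC (-0.93 ± 0.13, adjusted p = 0.00188), and Gins1 had a change of -0.49 ± 0.17 (adjusted p = 0.0461) that was lost without either mSSC or either iSC library.

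In the treatment experiment Mcm10 and Gins2 fell stepwise. Mcm10 was at 32.4 and 32.3 FPKM with vehicle, 21.6 and 21.8 with RA and 18.1 and 17.9 with RA and CHX, 3 levels with no overlap and replicates close together. It changed by -0.55 ± 0.03 (adjusted p = 4.09e-05) with RA and -0.81 ± 0.03 (adjusted p = 6.76e-07) with RA and CHX against vehicle. Gins2 was at 14.8 and 13.9 FPKM with vehicle, 9.34 and 10.6 with RA and 4.38 and 4.58 with RA and CHX, again 3 separate levels, with changes of -0.49 ± 0.07 (adjusted p = 0.00115) and -1.48 ± 0.07 (adjusted p = 1.21e-06). Of the other GINS genes, Gins4 was slightly higher with RA and CHX than with vehicle (0.12 ± 0.03, adjusted p = 0.00841, lost without RA_CHX replicate 1) where Gins3 was lower (-0.36 ± 0.07, adjusted p = 0.00233).

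Primase and polymerase genes were lower in iSC than in mSSC for 6 of 9 (66.7%, beside 25% of all genes), all except Pola1, Prim1 and Pole. The catalytic subunit of polymerase delta, Pold1, had a log2 change of -1.12 ± 0.14 (adjusted p = 0.00156), and Pola2, the second subunit of polymerase alpha, -1.04 ± 0.16 (adjusted p = 0.00275). Pold2, which holds polymerase delta together, was the only member called higher in idSG. It was at 27.4 and 31 FPKM in mSSC, 48.5 and 39.9 in idSG and 18.4 and 17 in iSC. Both idSG libraries were above mSSC and both iSC libraries below it. The log2 change was 0.58 ± 0.15 (adjusted p = 0.0298) from mSSC to idSG and -1.27 ± 0.15 (adjusted p = 0.0153) from idSG to iSC. The rise was lost without any single mSSC or idSG library, and the fall without idSG replicate 1 (adjusted p = 0.113) and no other library.

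Pola1, the catalytic subunit of polymerase alpha, was at 6.29 and 8.76 FPKM in mSSC, 11.2 and 11.1 in idSG and 5.59 and 8.64 in iSC. The idSG libraries were close to each other and above all others of the experiment, while mSSC and iSC overlapped and their replicates were apart. It was not called in any induction comparison (0.53 ± 0.24, adjusted p = 0.143 in idSG against mSSC). Prim1, the catalytic primase subunit, was at 54.4 and 45.4 FPKM in mSSC, 80.9 and 59.6 in idSG and 48.2 and 46.4 in iSC, also highest in both idSG libraries without a call (0.48 ± 0.18, adjusted p = 0.0848). Pole, the catalytic subunit of polymerase epsilon, was at 52.5 and 52.9 FPKM in mSSC, 44.2 and 45.8 in idSG and 54.4 and 35.9 in iSC. Its iSC replicates lay on either side of all other values, so the log2 change of -0.25 ± 0.19 from mSSC to iSC is poorly fixed (95% interval -0.71 to 0.21). Pole2, the second subunit of that enzyme, was at 14.8 and 13.7 FPKM in mSSC, 17.5 and 13.3 in idSG and 9.89 and 7.05 in iSC. Both iSC libraries were below the rest, and the change from mSSC was -0.71 ± 0.21 (adjusted p = 0.0287), lost without either mSSC library or iSC replicate 2.

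The 2 subunits Pola1 and Pole2 were the members that rose most with RA and then diverged with CHX. Pola1 was at 5.88 and 5.84 FPKM with vehicle, 7.8 and 7.27 with RA and 13.7 and 13.2 with RA and CHX, 3 levels with no overlap. The change was 0.31 ± 0.05 (adjusted p = 0.0024) with RA and 1.07 ± 0.05 (adjusted p = 1.58e-06) with RA and CHX, the highest of the 44 in both. Pole2 was at 13.2 and 13.3 FPKM with vehicle, 15.2 and 15.3 with RA and 6.6 and 7.38 with RA and CHX, higher with RA (0.20 ± 0.06, adjusted p = 0.0215) and far below the vehicle level with RA and CHX (-0.83 ± 0.06, adjusted p = 7.12e-06). The rise with RA was lost without either RA library or either vehicle library. Pole was at 41.3 and 40.1 FPKM with vehicle, 40 and 40.9 with RA and 47 and 46.5 with RA and CHX, overlapping between vehicle and RA, and higher with CHX (0.19 ± 0.03, adjusted p = 0.000836). Pold1 was lower with CHX, at 47.3 and 45.9 FPKM against 71.4 and 75.3 FPKM (-0.64 ± 0.04, adjusted p = 2.83e-06), and Prim1 higher, at 86.4 and 87 FPKM against 74.1 and 71.2 FPKM (0.25 ± 0.03, adjusted p = 0.000198).

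Clamp and clamp loader genes were lower in iSC than in mSSC for 4 of 6 (66.7%, beside 25% of all genes). Pcna itself was at 271 and 238 FPKM in mSSC, 272 and 206 in idSG and 184 and 180.2 in iSC. Both iSC libraries were the lowest, idSG spanned the mSSC range, and the log2 change from mSSC was -0.48 ± 0.17 (adjusted p = 0.0522), just outside the threshold. RFC opens the clamp and sets it on the primer. Rfc1, its large subunit, was at 62.8 and 59.5 FPKM in mSSC, 48.5 and 43.4 in idSG and 27.6 and 32.1 in iSC, 3 levels in order without overlap, with a change of -1.01 ± 0.13 (adjusted p = 0.00175) from mSSC to iSC and -0.41 ± 0.13 (adjusted p = 0.0607) from mSSC to idSG. Rfc3, a small subunit, was at 60.6 and 54.7 FPKM in mSSC, 59.4 and 45.7 in idSG and 35.3 and 37 in iSC. Its iSC values were the lowest, its idSG values reached from below mSSC into the mSSC range, and the change from mSSC (-0.66 ± 0.16, adjusted p = 0.0127) was lost without either mSSC library or iSC replicate 1. Rfc4, whose exons overlap Eif4a2, was at 92.8 and 85.5 FPKM in mSSC and 85.1 and 87.3 FPKM in iSC, overlapping ranges (-0.05 ± 0.15, adjusted p = 0.811). Rfc5 was at 66 and 62.8 FPKM and 29.6 and 28.4 FPKM in the same groups (-1.12 ± 0.14, adjusted p = 0.00154).

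With CHX, Pcna was lower, and the loader genes moved in both directions. Of the 6 clamp and loader genes, 2 were called higher and 2 lower against vehicle (33.3% each), near the 36.1% and 43.2% of all genes. Pcna was at 269 and 260.1 FPKM with vehicle, 250.2 and 267 with RA and 150.1 and 150.0 with RA and CHX, the vehicle and RA ranges overlapping and both libraries with CHX far lower (-0.81 ± 0.04, adjusted p = 1.54e-06). Rfc1 was at 53.9 and 53.2 FPKM with vehicle, 52.3 and 54.3 with RA and 56.5 and 56.1 with RA and CHX, and Rfc1 was not called against either group. Rfc3 was at 48.1 and 49.9 FPKM with vehicle, 43.1 and 42.1 with RA and 51.6 and 52.3 with RA and CHX, lowest with RA (-0.20 ± 0.03, adjusted p = 0.00227) and highest with CHX (0.28 ± 0.03, adjusted p = 0.000146 against RA). Rfc2, another small subunit, was higher with RA (0.11 ± 0.03, adjusted p = 0.018, lost without vehicle replicate 1 or RA replicate 1) and lower with RA and CHX (-0.31 ± 0.03, adjusted p = 3.76e-05).

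Of the RPA subunits, which coat single strands, the large and the middle one fell together. Between mSSC and iSC 2 of 3 were called lower (66.7%, beside 25% of all genes). Rpa1 was at 89.3 and 92.7 FPKM in mSSC, 73.5 and 58.8 in idSG and 40.6 and 42.9 in iSC, 3 levels in order with no overlap. The change was -1.11 ± 0.14 (adjusted p = 0.0016) from mSSC to iSC and -0.46 ± 0.14 (adjusted p = 0.0497) from mSSC to idSG, the latter lost without any single library of the experiment except idSG replicate 1. Rpa2 went from 135 and 131 FPKM in mSSC to 50.9 and 70.8 FPKM in iSC (-1.13 ± 0.22, adjusted p = 0.00609). The smallest subunit, Rpa3, was at 89.9 and 82.5 FPKM in mSSC, 94.3 and 65.3 in idSG and 64.4 and 72 in iSC. Its replicates in idSG were far apart and its change from mSSC to iSC was not called (-0.34 ± 0.19, adjusted p = 0.173). In the treatment experiment, Rpa1 was at 73.9 and 72.8 FPKM with vehicle, 67.1 and 66.1 with RA and 53.6 and 54.8 with RA and CHX, a stepwise fall (-0.14 ± 0.03, adjusted p = 0.00684 with RA, -0.43 ± 0.03, adjusted p = 7.98e-06 with RA and CHX), whereas Rpa3 was at 109 and 94.1 FPKM with vehicle, 108 and 111 with RA and 93.7 and 88.6 with RA and CHX, with vehicle and RA overlapping and no call against vehicle. Rpa2 fell by a log2 change of -0.31 ± 0.03 (adjusted p = 0.000161) with RA and -0.72 ± 0.03 (adjusted p = 5.38e-07) with RA and CHX.

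Both Okazaki fragment genes were lower in iSC than in mSSC, beside 25% of all genes. Fen1, the flap nuclease that trims the RNA primer end, was at 69.2 and 58.3 FPKM in mSSC, 71.7 and 55.8 in idSG and 37.3 and 34.1 in iSC. The idSG and mSSC ranges overlapped and both iSC libraries were well below (-0.82 ± 0.16, adjusted p = 0.0069), a call lost without mSSC replicate 1. Lig1, the ligase that seals the fragments, was at 136 and 126 FPKM in mSSC, 110.1 and 94.4 in idSG and 69.2 and 70.8 in iSC, 3 levels in order without overlap (-0.89 ± 0.13, adjusted p = 0.00232). Exons of both genes overlap a neighbour on the opposite strand. In the treatment experiment Fen1 was at 70.8 and 72.8 FPKM with vehicle, 65.8 and 66.5 with RA and 69.2 and 65.9 with RA and CHX. It was lower with RA (-0.12 ± 0.03, adjusted p = 0.0265), a small change that was lost without either RA library or vehicle replicate 2 and was 0.00 after quantile normalization. Lig1 was at 96.8 and 100.3 FPKM with vehicle, 89.1 and 98.5 with RA and 76.4 and 76.1 with RA and CHX, with vehicle and RA overlapping and both CHX libraries below (-0.37 ± 0.05, adjusted p = 0.000282).

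Of 3 deoxynucleotide synthesis genes, Rrm2 and Tyms were lower in iSC than in mSSC (66.7%, beside 25% of all genes). Rrm1, the large subunit of ribonucleotide reductase, was at 82.9 and 76.1 FPKM in mSSC, 91 and 99.3 in idSG and 94.9 and 98.7 in iSC, above mSSC in both idSG and both iSC libraries, without a call (0.28 ± 0.12, adjusted p = 0.0894). Rrm2, its small subunit made in S phase, was at 57.5 and 41.9 FPKM in mSSC, 37.8 and 33 in idSG and 32.9 and 24.7 in iSC. The mSSC replicates were far apart, every idSG and iSC value was below them, and the change to iSC was -0.76 ± 0.20 (adjusted p = 0.0197), lost without mSSC replicate 1 or iSC replicate 2. Tyms, which makes thymidylate, was at 11 and 10.3 FPKM in mSSC, 10.6 and 7.38 in idSG and 5.34 and 6.15 in iSC. The iSC libraries were lowest, idSG and mSSC overlapped, and the change was -0.79 ± 0.21 (adjusted p = 0.0184), lost without either mSSC library or iSC replicate 1. Tyms and Pcna have named pseudogenes in the annotation, so their values are uncertain to the extent that reads were shared.

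With CHX, all 3 genes were lower against vehicle and against RA, where 43.2% and 42.5% of all genes were called lower. Rrm2 was at 71.6 and 69.2 FPKM with vehicle, 65.6 and 67 with RA and 20.3 and 19.5 with RA and CHX. The vehicle and RA libraries were close together, although without overlap, and the CHX libraries far below both (-0.09 ± 0.04, adjusted p = 0.0788 with RA and -1.77 ± 0.04, adjusted p = 5.03e-08 with RA and CHX against vehicle). Rrm1 was at 77.1 and 79.7 FPKM with vehicle, 67.9 and 67.5 with RA and 60.7 and 57.3 with RA and CHX, a fall in 2 steps. Against vehicle its change was -0.21 ± 0.04 (adjusted p = 0.00311) with RA and -0.40 ± 0.04 (adjusted p = 3.69e-05) with RA and CHX. Tyms was at 12.8 and 12.5 FPKM with vehicle, 10.2 and 9.86 with RA and 8.17 and 8.07 with RA and CHX, also a fall in 2 steps. Against vehicle its change was -0.31 ± 0.04 (adjusted p = 0.00132) with RA and -0.58 ± 0.04 (adjusted p = 1.45e-05) with RA and CHX.

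Chromatin assembly factor 1 places new histones behind the fork, and its large and middle subunits changed in opposite directions with CHX and were both lower in iSC. Of all genes, 25% were called lower between mSSC and iSC. Chaf1b, the middle subunit, had the lowest log2 change of the 44 in all 3 treatment comparisons. It was at 35.9 and 40.4 FPKM with vehicle, 25.4 and 25.1 with RA and 5.83 and 5.65 with RA and CHX, 3 well separated levels. The change was -0.58 ± 0.06 (adjusted p = 0.000286) with RA, -2.54 ± 0.06 (adjusted p = 7.84e-08) with RA and CHX against vehicle and -1.96 ± 0.06 (adjusted p = 3.29e-07) against RA. Chaf1a, the large subunit, was at 45.6 and 49.7 FPKM with vehicle, 46.3 and 50.2 with RA and 58.9 and 60.2 with RA and CHX, overlapping between vehicle and RA, and higher with CHX (0.32 ± 0.05, adjusted p = 0.00101). In induction, Chaf1a was at 57.5 and 58.7 FPKM in mSSC, 50 and 42.9 in idSG and 28 and 20.7 in iSC, falling in order without overlap (-1.24 ± 0.17, adjusted p = 0.00194). Chaf1b was at 43 and 52.7 FPKM in mSSC, 58 and 43.2 in idSG and 20.3 and 27.3 in iSC. Its idSG and mSSC ranges overlapped and both iSC libraries were below (-0.98 ± 0.21, adjusted p = 0.00848), a call lost without mSSC replicate 2 (adjusted p = 0.06).

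**Figure D4:**
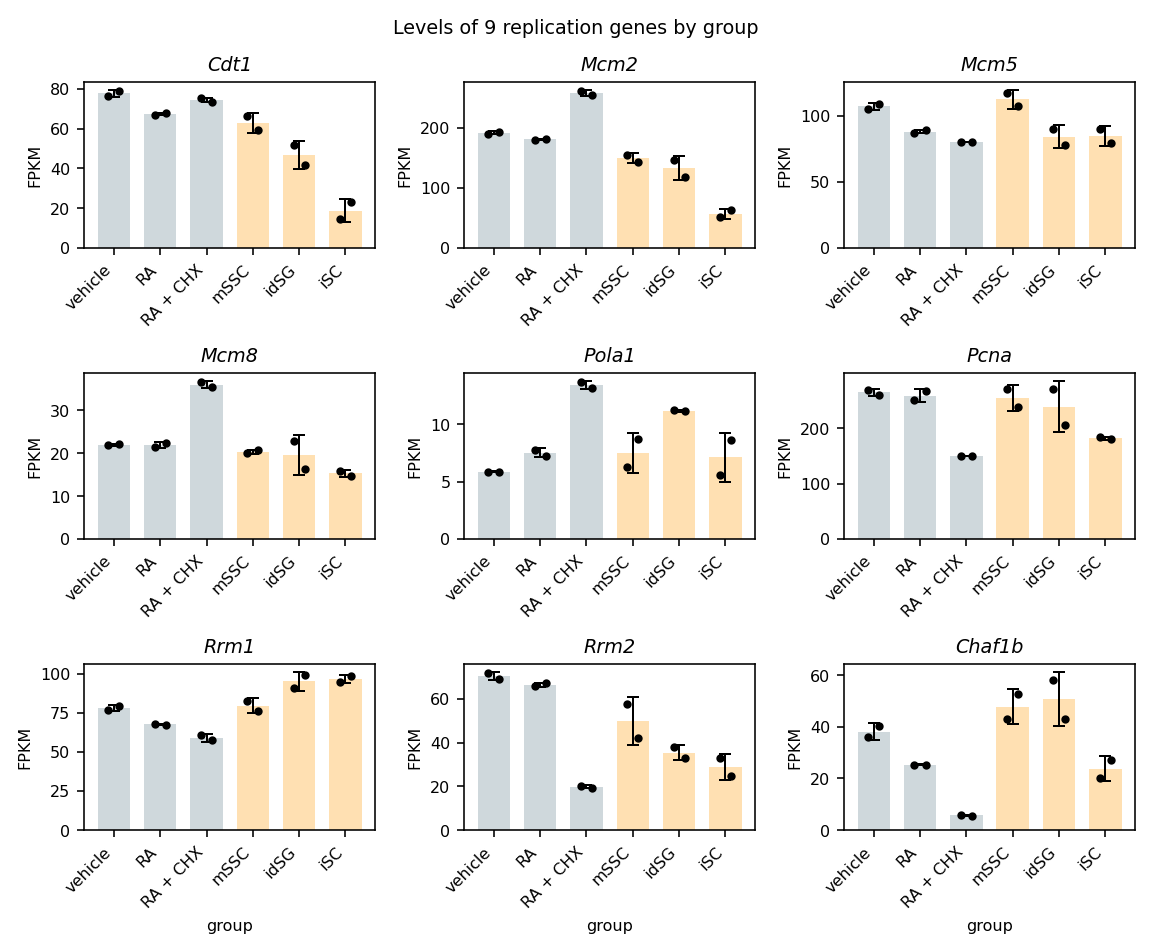
Bars are group means of FPKM with error bars of 1 SD over 2 libraries, and points the libraries, for 9 replication genes, grey for the treatment experiment and orange for the induction experiment. With RA and CHX, Pola1 and Mcm8 stand above vehicle and Pcna, Rrm2 and Chaf1b below it, while Cdt1 and Mcm2 are lowest in iSC and Rrm1 is not.

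The replicates of the treatment experiment were close, with a median absolute log2 difference over the members of 0.0243 to 0.0395. In the induction experiment they were further apart. idSG replicate 2 was lower than idSG replicate 1 for 42 of 44 members, by a median of -0.30, where the median over all genes was -0.04. The mSSC replicates differed by a median of -0.10 (32 of 44 lower in replicate 2) and the iSC replicates by 0.04. The members thus shared a shift between the idSG libraries that is larger than their median change from mSSC to idSG (-0.19), and the Sertoli list was 581 FPKM in replicate 1 and 1461 in replicate 2.

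Sertoli cell markers were higher in the induced groups, and the iSC libraries had the highest Sertoli sums and the lowest member sums of the experiment. The Sertoli list and the members summed to 581 and 2898 FPKM in idSG replicate 1, and to 1461 and 2345 in idSG replicate 2. Not every pair of libraries kept this inverse order. In mSSC replicate 2 the sums were 5.34 and 2842. Both sums were higher in iSC replicate 2 (2942 and 1830) than in iSC replicate 1 (2152 and 1757). Much of the Sertoli sum in iSC was Clu alone (1212 FPKM in replicate 1 and 2111 in replicate 2). All 8 of the 10 Sertoli markers that could be tested were higher in idSG and in iSC than in mSSC, and 1 of 8 was higher in iSC than in idSG. Clu was at 1.57 and 1.81 FPKM in mSSC, 292 and 743 in idSG and 1212 and 2111 in iSC, and Gata4 at 0.289 and 0.172 FPKM in mSSC, 19.7 and 43.3 in idSG and 64.6 and 61.7 in iSC. Peritubular and fibroblast genes summed to 116 and 211 FPKM in mSSC, 608 and 904 in idSG and 1280 and 1489 in iSC. Vim alone gave 60.7 and 70.8 FPKM in mSSC, 373 and 662 in idSG and 604 and 971 in iSC. The list did not rise as a whole. Of 9 tested, 6 were higher and 2 lower (Pdgfra and Pdgfrb) in iSC than in mSSC (66.7% and 22.2%, beside 26.2% and 25% of all genes). In a list of 5 Leydig cell genes, only 2 were high enough to test. Both were higher in idSG and in iSC than in mSSC, beside 17.9% and 26.2% of all genes. Star, 1 of them, was at 2.52 and 2.06 FPKM in mSSC, 33.6 and 70.6 in idSG and 141 and 93.2 in iSC. Of a list of 5 germ cell genes, 1 was higher and 2 were lower in iSC than in mSSC. Sall4, a transcription factor gene of undifferentiated germ cells, was lower, at 30.6 and 28.8 FPKM in mSSC, 21.5 and 20.2 in idSG and 3.64 and 9.53 in iSC (-2.13 ± 0.35, adjusted p = 0.00333), as was Mael, a piRNA pathway gene, at 259 and 256 FPKM in mSSC, 220.3 and 164 in idSG and 149.8 and 162 in iSC (-0.72 ± 0.17, adjusted p = 0.0119). Tex101, which encodes a germ cell surface protein, was higher, at 114 and 118 FPKM in mSSC, 169 and 118 in idSG and 406 and 275 in iSC (1.52 ± 0.24, adjusted p = 0.00293). The other genes of the list were not called: the germ cell RNA helicase gene Ddx4 was at 164 and 159 FPKM in mSSC, 192 and 145 in idSG and 145 and 148 in iSC, and Dazl, which encodes a germ cell RNA-binding protein, at 467 and 452 FPKM in mSSC, 571 and 409 in idSG and 622 and 451 in iSC. Scaled to the level of Ddx4 and Dazl, which are 2 of those 5 genes, an alternative chosen after seeing the data, 27 of the 29 members lower in iSC than in mSSC kept their call, and 2 remained of the 19 between iSC and idSG. Since Ddx4 and Dazl were the genes of the list without a call, this scaling moved the members' median between mSSC and iSC only from -0.74 to -0.77. The calls kept there were thus largely given by the choice of genes. Mael and Sall4, which were lower in iSC, were not used for scaling. With the mean Sertoli marker level as a covariate, also chosen afterwards, 0 members and 0 of all genes were called between iSC and mSSC at an adjusted p under 0.05 in limma. Since 97.5% of the variance of that level lay between the groups, Sertoli cell RNA and the induction stage cannot be told apart in this model.

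**Figure D5:**
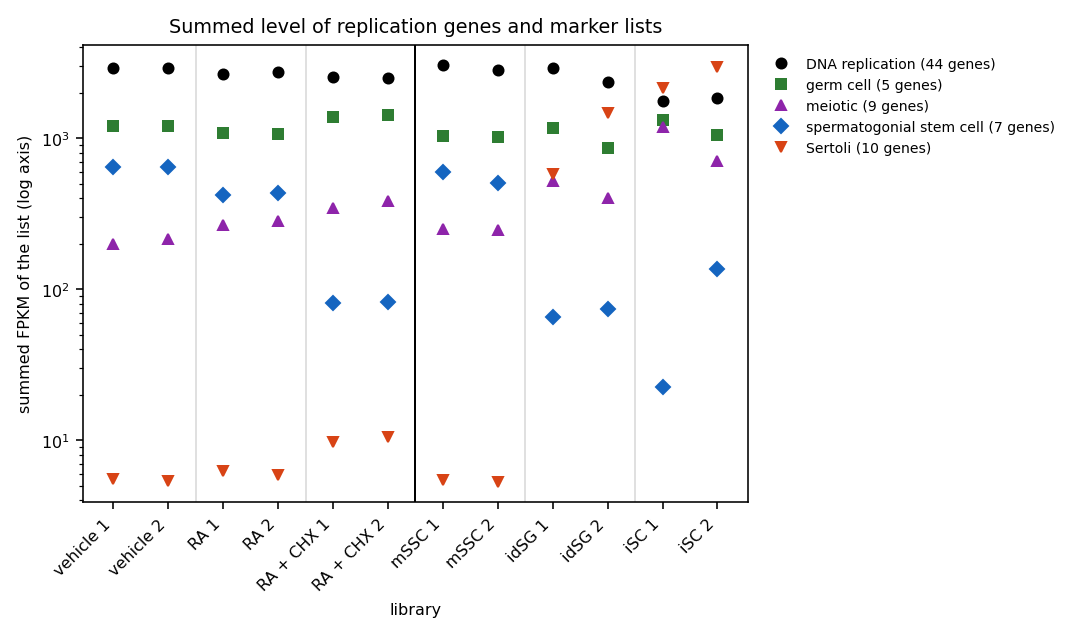
The y axis (log scale) is the FPKM summed over the 44 replication genes and over marker lists, for each of the 12 libraries on the x axis. The replication genes stay between 1757 and 3033 FPKM with both iSC libraries lowest, while the Sertoli list goes from about 5 FPKM in mSSC to 2942 in iSC replicate 2.

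Genes of the same processes outside the 44 were also measured. Of 31 other fork and origin genes, 2 were higher and 16 lower in iSC than in mSSC (6.45% and 51.6%, beside 26.2% and 25% of all genes), with a median log2 change of -0.49. Pclaf, the PCNA-associated factor (in the files under an older symbol), went from 27.4 to 7.77 FPKM (-1.68 ± 0.25, adjusted p = 0.00255) and Chtf18, of an alternative clamp loader, from 38.1 to 16.8 FPKM (-1.13 ± 0.13, adjusted p = 0.00123). Top1, the topoisomerase that relaxes DNA ahead of the fork, rose (0.86 ± 0.15, adjusted p = 0.00409), as did Pole4, a small subunit of polymerase epsilon (0.73 ± 0.21, adjusted p = 0.025). Gmnn, which encodes the CDT1 inhibitor geminin, was at 61.9 and 66.4 FPKM in mSSC, 135 and 96.5 in idSG and 73.7 and 59.1 in iSC, higher in idSG (0.83 ± 0.19, adjusted p = 0.0221). Dna2, a nuclease that trims long flaps, was at 6.35 and 6.2 FPKM in mSSC, 18.9 and 16.2 in idSG and 9.35 and 4.39 in iSC, also highest in both idSG libraries (1.35 ± 0.30, adjusted p = 0.0194), and higher with RA than with vehicle (0.57 ± 0.04, adjusted p = 7.16e-05). In this list 5 genes were higher and 13 lower with RA (16.1% and 41.9%, beside 22.8% and 29.9% of all genes). With RA and CHX against vehicle 10 were higher and 14 lower (32.3% and 45.2%), near the 36.1% and 43.2% of all genes. In idSG against mSSC 3 were higher and 6 lower (9.68% and 19.4%, beside 17.9% and 10.7%), and in iSC against idSG 0 higher and 6 lower (19.4%, beside 6.75%). Pold4, the smallest subunit of polymerase delta, was at 12.9 and 12.9 FPKM with vehicle, 6.72 and 6.85 with RA and 3.39 and 3.57 with RA and CHX, falling in order without overlap (-0.84 ± 0.05, adjusted p = 4.46e-05 with RA).

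Among 12 other nucleotide supply genes, 1 was higher and 7 lower in iSC than in mSSC (8.33% and 58.3%, beside 26.2% and 25% of all genes). Tk1, the S phase thymidine kinase, was at 52.3 and 49.7 FPKM in mSSC, 35 and 23.7 in idSG and 13.1 and 19.1 in iSC, 3 levels in order without overlap (-1.62 ± 0.23, adjusted p = 0.00229). Samhd1, which breaks down deoxynucleotides, was at 74.4 and 88.4 FPKM in mSSC, 16.2 and 16.4 in idSG and 9 and 24.6 in iSC, low in every induced library (-2.36 ± 0.39, adjusted p = 0.00354). Rrm2b, the small reductase subunit of non-dividing cells, rose, at 2.86 and 3.77 FPKM in mSSC, 3.85 and 4.26 in idSG and 12.2 and 9.63 in iSC (1.46 ± 0.21, adjusted p = 0.00218). Rrm2b thus went the opposite way to Rrm2. In the treatment experiment Tk1 was at 55.2 and 55.6 FPKM with vehicle, 45.1 and 41.7 with RA and 15.8 and 17.4 with RA and CHX, and Samhd1 at 65.6 and 61.6 FPKM with vehicle, 33.8 and 33.7 with RA and 21.5 and 20.9 with RA and CHX, each lowest with RA and CHX. In this list 1 gene was higher and 7 lower with RA (8.33% and 58.3%, beside 22.8% and 29.9% of all genes). With RA and CHX against vehicle 3 were higher and 9 lower (25% and 75%, beside 36.1% and 43.2%).

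Of 22 E2F family and S phase regulators, 7 were higher and 8 lower in iSC than in mSSC (31.8% and 36.4%, beside 26.2% and 25% of all genes). E2f1, an activator of S phase genes, was at 70.9 and 61.6 FPKM in mSSC, 44.5 and 38.2 in idSG and 19.7 and 25.2 in iSC, lower in iSC than in idSG (-0.86 ± 0.17, adjusted p = 0.0301), and E2f8, a repressor of the family, fell to 2.51 and 2.48 FPKM in iSC (-1.69 ± 0.20, adjusted p = 0.00126). Ccne2, a cyclin of the CDK2 kinase, rose, at 5.32 and 4.13 FPKM in mSSC, 8.82 and 7.78 in idSG and 33.5 and 22 in iSC (2.31 ± 0.23, adjusted p = 0.000878). Cdkn1a, the CDK inhibitor p21, was at 13.6 and 31.2 FPKM in mSSC, 141 and 353 in idSG and 335 and 484 in iSC, higher in every induced library (4.22 ± 0.51, adjusted p = 0.00135). Like the sum of the Sertoli list, Cdkn1a was lower in replicate 1 than in replicate 2 of both idSG and iSC, and the part of Sertoli cell RNA in its level was not tested. With RA, 5 regulators were higher and 5 lower (22.7% each, beside 22.8% and 29.9% of all genes). With RA and CHX 8 were higher and 13 lower against vehicle (36.4% and 59.1%, beside 36.1% and 43.2%). Of 16 mitosis genes, 1 was higher and 8 lower in iSC than in mSSC (6.25% and 50%), among them Ccnb1, the mitotic cyclin, at 148 and 133 FPKM in mSSC, 137 and 113 in idSG and 47.9 and 65.9 in iSC (-1.30 ± 0.19, adjusted p = 0.00218), whereas the checkpoint kinase gene Bub1 rose (0.64 ± 0.17, adjusted p = 0.0204). Of the same 16, 0 were higher and 8 lower with RA (50%), and 1 higher and 12 lower with RA and CHX against vehicle (6.25% and 75%), beside the same shares of all genes.

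RA for 24 h on laminin and day 3 of induction were set side by side over the members, in experiments that share no libraries. The log2 changes of RA against vehicle and of idSG against mSSC had a Pearson r of 0.35 and a Spearman rho of 0.23 across the 44 genes, which are not independent replicates. Mcm10 was among the lowest in both (-0.55 and -1.27) and Pola1 among the highest (0.31 and 0.53), the latter called with RA alone. Chaf1b and Gins2 were low with RA (-0.58 and -0.49) and were not called in idSG (0.07 and 0.11).

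Annotation limits some of these values. In a GENCODE annotation of GRCm38, exons of 12 members overlap a protein-coding neighbour, among them Mcm7 with Ap4m1 and Cops6, Fen1 with Tmem258, Lig1 with Zswim9, Gins2 with Gse1, Chaf1a with Ubxn6, Orc2 with Nif3l1, Orc4 with Acvr2a, Orc6 with Vps35 and the loader genes Rfc2, Rfc4 and Rfc5. Whether strand was used in the authors' counting is not given in the sources used here, so reads of such pairs cannot be told apart and their levels are uncertain to that extent.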

How the data were processed

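The 12 libraries measure mouse RNA by sequencing, 2 labelled biological replicates in each of 6 groups. The authors deposited FPKM values, 1 per gene symbol and library, and the submitters' processing notes name TopHat2 2.0.6, Cuffdiff and the mm9 build. Which Cuffdiff version and options were used is not given in the sources used here. No counts were available, so no count model was used, the absolute depth is unknown, and no interval from counting was given. The 25 repeated lines of vehicle replicate 1, none of them a member's, were removed. There were 0 columns of other samples.

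Values were tested as log2(FPKM + 1), a scale that understates changes of low genes, with limma 3.58.1 in R 4.3.3 (empirical Bayes with trend, group means, no covariate). Each experiment was fitted alone over its 6 libraries, with 3 residual degrees of freedom, over genes averaging 1 FPKM or more, and p-values were adjusted by Benjamini-Hochberg over all of them, with a threshold of 0.05. Adjusted p-values in the text come from this fit, except those printed beside a lost call, which come from the refit without the library named there. The ± values after log2 changes are standard errors. An exact permutation test of 2 against 2 cannot go below 0.333 and was not used. Each p-value sets a group difference against the spread between libraries of the same group, estimated over all groups of the experiment. It does not cover variation beyond these libraries.

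The members, gene lists and tests were chosen with earlier results of these data known. Per-library values were printed for a list of 20 members and for the 3 highest and 3 lowest members of each comparison, and outside genes by size of change among those called averaging 5 FPKM or more. Promoters came from RefSeq (GRCm38.p6), searched with Python 3.11.15. The steps were tested on simulated data. Alternatives were the pseudocount (0.1), filters, variance trend, replicate block, median-ratio and quantile scaling, all 12 libraries or 2 groups in a fit, a log2 limit of 1 and each library left out. A Sertoli marker covariate and scaling to Ddx4 and Dazl were added after seeing the data. Replicate numbers were not treated as pairs in the main fit. Deviations of libraries with the same number correlated at -0.03 to 0.09 over genes. With 2 libraries a group, this cannot show whether libraries of the same number shared a culture or batch.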

Additional observations from a re-analysis of the deposited data

How the results depend on the processing

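Between iSC and mSSC, 0 members were higher and 26 to 32 lower under every other pseudocount, filter, scaling, trend or library choice run, except that all 12 libraries in 1 fit gave 2 higher, a log2 limit of 1 gave 11 lower, leaving out 1 library gave 19 to 30 lower, and the Sertoli covariate gave 0. Between iSC and idSG, the lower count of 19 was 4 with no filter, 12 without the trend, 1 with the 2 groups alone, 4 at the log2 limit, 0 with the Sertoli covariate, 2 scaled to Ddx4 and Dazl and 0 to 15 with 1 library left out, while all 12 libraries gave 2 higher and 29 lower. Between idSG and mSSC (1 higher, 3 lower), lower counts were 1 with no filter, 8 under median-ratio and 5 under quantile scaling. All 12 libraries gave 4 higher and 10 lower, the log2 limit 0 and 1, the Sertoli covariate 0 and 0, Ddx4 and Dazl scaling 0 and 1, and leaving out 1 library 0 to 1 and 0 to 3. RA against vehicle (4 higher, 19 lower) gave 2 higher without the trend, 11 higher and 9 lower under quantile scaling, 0 and 0 with all 12 libraries or the log2 limit, and 1 to 4 higher and 15 to 17 lower with 1 library left out. RA with CHX against vehicle (13 higher, 21 lower) gave 4 higher with all 12 libraries, and 1 higher and 3 lower at the log2 limit. Against RA (14 higher, 19 lower) these gave 7 and 9, and 0 and 3. Over all genes, 1415 were called between iSC and idSG, against 623 with no filter, 911 with the block, 5272 with all 12 libraries, 151 with 2 groups, 558 at the log2 limit, 259 scaled to Ddx4 and Dazl, 8 with the Sertoli covariate and 8 to 1547 with 1 library left out. Between idSG and mSSC 3613 became 6562 with all 12 libraries, 1925 at the limit, 2023 scaled to Ddx4 and Dazl, 0 with the covariate and 961 to 4194 with 1 library left out. Between iSC and mSSC 6461 became 3192 at the limit, 0 with the covariate and 3478 to 6308. With all 12 libraries and at the limit, the treatment counts were 510 and 171 for RA, from 6503, then 6290 and 1558 with CHX against vehicle, from 9788, and 5858 and 1202 against RA, from 9573. Of single members called with or without the alternative, those whose sign reversed outside the Sertoli covariate did so under quantile normalization: with RA Mcm2 (0.12), Gins4 (0.001171), Rfc1 (0.11), Rfc4 (0.003214), Fen1 (0.0002926) and, beside these, the members' median (0.01225), with RA and CHX against vehicle Orc3 (0.10), and against RA Cdt1 (-0.01207), Mcm4 (-0.007318), Mcm6 (-0.14) and Fen1 (-0.12). With the Sertoli covariate, 2 of 4 called members between idSG and mSSC and 21 of 29 between iSC and mSSC changed sign. The members' median reversed to 0.71 between idSG and mSSC and 0.43 between iSC and mSSC. Members not called in the report also changed sign when a library was left out, such as Pole between iSC and mSSC (-0.54 to 0.04) and Mcm10 between iSC and idSG (-0.55 to 0.14). The cause was not tested. Whether libraries of the same replicate number shared a culture or batch was not settled. With the replicate block, 13 members were lower between iSC and idSG and 28 between iSC and mSSC. With 2 libraries a group and no counts, changes near the spread of the replicates were not detectable.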
